A study of Neurospora crassa with 16 samples.

Results

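The genes described here are the 5 calcium pump and exchanger genes nca-1 (NCU03305), nca-2 (NCU04736), nca-3 (NCU05154), pmr-1 (NCU03292) and cax (NCU07075) of the filamentous fungus Neurospora crassa. They were chosen by identifier from 9730 counted genes, and all 5 had reads in both libraries and passed the minimum of 10 counts in each. The study asked what loss of the histone demethylase LSD1 does to heterochromatin and gene expression. Its expression arm consists of 2 RNA-seq libraries of strain N5555 (mat a, with lsd1 replaced by the hygromycin resistance marker hph), grown from germinating asexual spores (conidia) in shaken cultures, 16 h at 32 °C, on Vogel's medium with 1.5% sucrose. The reference, wild-type strain N3752 (mat A), enters only through the authors' deposited tables, which list the genes they called higher and those they called lower in Δlsd1. The strains thus differ in mating type as well as at lsd1, and the wild-type libraries belong to another series. Whether the 2 Δlsd1 libraries came from separate cultures is not stated, so their spread may be technical.

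Fungal cells keep cytosolic calcium low by moving it out of the cell or into the vacuole, the endoplasmic reticulum and the Golgi, and brief releases back into the cytosol act as signals. Calcium pumps of the P-type ATPase family use ATP for this and pass through a phosphorylated intermediate, while calcium/proton exchangers use the proton gradient that the vacuolar ATPase builds. Of the members, nca-1 encodes a pump related to those of the animal endoplasmic reticulum, and nca-2 and nca-3 encode pumps related to the vacuolar pump PMC1 of budding yeast. The product of pmr-1 is related to the yeast Golgi pump PMR1, which carries calcium and manganese, and cax encodes the vacuolar calcium/proton exchanger.

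Reads on genes numbered 7017726 in replicate 1 and 6797672 in replicate 2. The targeted gene lsd1, taken as NCU09120 from knowledge of the gene, kept 41 and 65 reads, and stood at -2.93 on the log2 scale against wild type in the authors' deposited table (adjusted p = 7.06e-15). Growth and spore genes were both measured, with 771 ± 36.2 CPM (SD, n = 2) for actin (act) and 30.4 ± 10.5 CPM (SD, n = 2) for the conidiation gene con-10. The other growth gene of the check, gpd-1, stood at 23917 ± 3002 CPM (SD, n = 2). In CPM, gpd-1 was 1.19-fold higher in replicate 2. The growth gene act was 1.07-fold higher in replicate 1 (adjusted p = 0.00357 by the exact binomial test). The spore genes of the check went opposite ways in the authors' deposited tables, con-10 with a log2 value of -1.75 (adjusted p = 8.70e-15) but con-6, another conidiation gene, with 1.41 (adjusted p = 0.162). Set against the wild-type mean, con-6 gave 1.78 with replicate 1 alone but 0.92 with replicate 2 alone. For con-10 these values were -1.43 and -2.15. On the authors' scale con-10 and con-6 were also 1.65-fold and 1.81-fold higher in replicate 1 than in replicate 2 (adjusted p = 6.35e-06 and 0.00328 by the exact binomial test). Their part in the changes given here was not tested. Levels are given as CPM, the gene's reads per 1000000 reads on genes, with the library sizes corrected by edgeR's TMM method. Levels of different genes were set against each other per kilobase of annotated gene span, which includes introns. In a bulk sample of this kind, fewer cells that express a gene and less RNA of it per cell cannot be told apart.

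The increases called in Δlsd1 were at the vacuolar-type pump gene nca-3, but not at its relative nca-2, and at the exchanger gene cax. Of the 5 genes, 2 were called higher in the authors' deposited tables, nca-3 and cax, none was called lower, and nca-1, nca-2 and pmr-1 were in neither table. Over all 9730 counted genes, 3.13% were called higher and 7.76% lower. Among genes with 10 or more counts in both libraries the shares were 4.15% and 8.57%. Of the 2737 genes whose mean CPM lay within the members' range, 4.82% were called higher and 4.35% lower. The members were chosen with results of these data known, so the count is a description of these genes.

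The pump gene nca-3 lies on chromosome VI, 3552251 to 3556833 (assembly NC12). Its 2059 reads in replicate 1 and 2152 in replicate 2 correspond to 286 CPM (exact Poisson 95% interval 274 to 299) and 325 CPM (311 to 339). These intervals, like the others given here, cover counting error only. On the authors' scale of normalised counts, its Δlsd1 libraries stood at 3219 and 3646, both above the wild-type mean of 1171 in the authors' deposited table. The authors' deposited table put the increase of nca-3 at 2.93-fold, or 1.55 on the log2 scale (adjusted p = 2.56e-14). The difference of 2262 normalised counts between the means of the authors' deposited table was larger than the SD of 302 between the Δlsd1 libraries, while the spread of the wild-type libraries is not known here. Set against that wild-type mean from the authors' deposited table, replicate 1 alone gave a log2 fold change of 1.46 and replicate 2 alone gave 1.64.

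Among the 305 genes of the authors' deposited table of higher genes, nca-3 ranked 8 by p-value but 58 by fold change. The median log2 fold change of that authors' deposited table was 1.25, below the 1.55 of nca-3.

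The exchanger gene cax lies on the same chromosome VI, 243268 to 247124. It had 793 reads in replicate 1, which is 110 CPM (103 to 118), and 838 in replicate 2, which is 126 CPM (118 to 135). On the authors' scale these are 1241 and 1421 normalised counts, both above the wild-type mean of 573 in the authors' deposited table. The authors' deposited table put the increase of cax at 2.32-fold, or 1.21 on the log2 scale (adjusted p = 3.45e-08), and it ranked 50 by p-value and 174 by fold change among the 305 higher genes. Each library set alone against the wild-type mean from the authors' deposited table gave 1.11 in replicate 1 and 1.31 in replicate 2. The difference of 757 normalised counts between the means of that authors' deposited table exceeded the SD of 127 between the Δlsd1 libraries.

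The rise was larger at nca-3 than at cax by 0.34 on the log2 scale in the authors' deposited table, and that difference was not tested. Per kilobase of gene span, the level of nca-3 was 1.72 times that of cax in wild type, from the means in the authors' deposited table. In Δlsd1 the same ratio was 2.18 in replicate 1 and 2.16 in replicate 2. Both libraries thus lay on the same side of the wild-type ratio and close to each other. The change in this ratio restates the log2 difference, with the same wild-type means, and is no separate support.

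**Figure D1:**
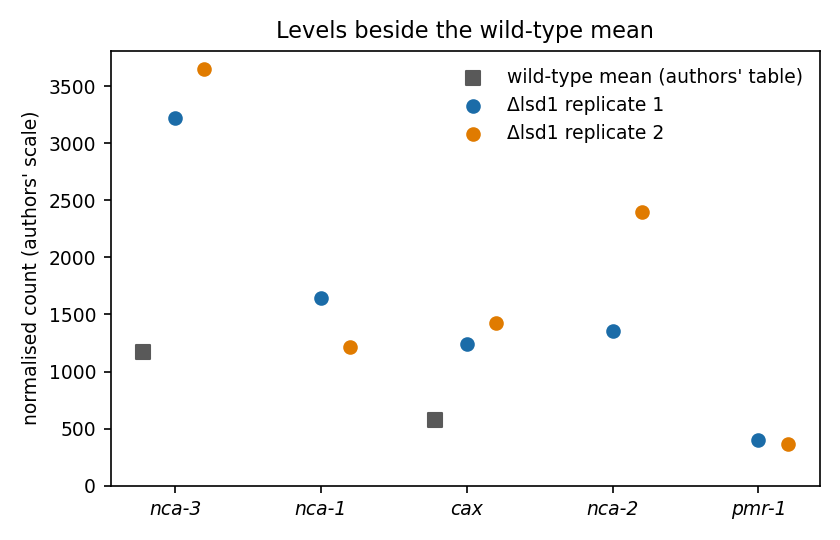
Normalised counts on the authors' scale (vertical axis, linear) for the 5 genes, with the authors' wild-type mean as squares and each Δlsd1 library as a circle. The squares are drawn for nca-3 and cax, the genes that the authors' deposited tables hold; both Δlsd1 libraries lie above the wild-type mean of 1171 for nca-3 and of 573 for cax.

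The genes in neither table had levels that can be set on the same scale but no wild-type value beside them. The tables hold genes from 2.00-fold upwards or 0.500-fold downwards with unadjusted p-values of up to 0.0497, so a gene outside them missed either limit. On the authors' scale nca-1 stood at 1647 and 1212 normalised counts in the Δlsd1 libraries, nca-2 at 1356 and 2399, and pmr-1 at 397 and 361. If a change under 2-fold kept nca-1 out, its wild-type mean lay between 715 and 2860, and for pmr-1 between 189 and 758. For nca-2 the same bounds are 939 and 3756.

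Whether fold change or p-value kept these genes out is not known from the tables. In the authors' deposited tables, 137 genes had a Δlsd1 mean within 2-fold of that of nca-1, with a median p-value of 7.05e-09, and 7 of them had a p-value over 0.01. For nca-2 this was 5 of 107 tabled genes, and for pmr-1 it was 8 of 271 in the authors' deposited tables. All of these genes had passed both limits, so their p-values cannot show which limit nca-1, nca-2 or pmr-1 missed.

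**Figure D2:**
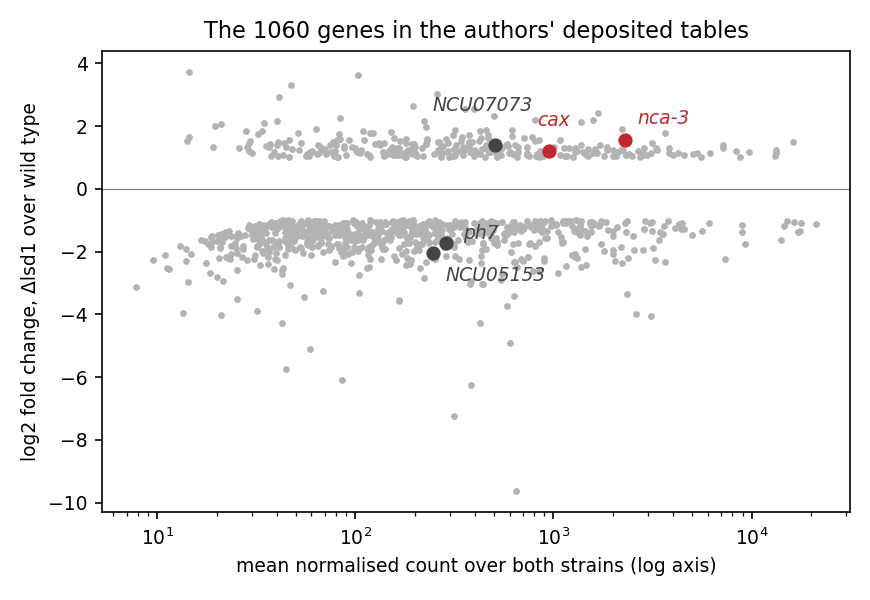
The log2 fold change of Δlsd1 over wild type (vertical axis) against the mean normalised count over both strains (horizontal log axis) for the 1060 genes of the authors' deposited tables. The red points are nca-3 at 1.55 and cax at 1.21, and the dark points are ph7, NCU05153 and NCU07073, which are described below with the related and neighbouring genes.

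In the Δlsd1 libraries nca-3 was the highest of the 5 genes and pmr-1 the lowest. Per kilobase, nca-3 stood at 62.4 CPM per kb in replicate 1 and 70.8 in replicate 2, a mean of 66.6 ± 5.96 (SD, n = 2), and 91.2% of all genes lay below it. The Golgi-type pump gene pmr-1 (chromosome I, 5201256 to 5205099) had 253 and 212 reads, which is 9.14 and 8.32 CPM per kb, a mean of 8.73 ± 0.582 (SD, n = 2). The level of nca-3 was 6.83 times that of pmr-1 in replicate 1 and 8.51 times in replicate 2. The median of the 7319 genes with 10 or more counts in both libraries was 10.4 CPM per kb, and pmr-1 was the member below it.

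Between these lay nca-1, cax and nca-2, which did not separate. The endoplasmic reticulum-type pump gene nca-1 (chromosome I, 5258847 to 5262474) stood at 40.3 CPM per kb in replicate 1 and 29.7 in replicate 2, a mean of 35.0 ± 7.49 (SD, n = 2). The exchanger gene cax stood at 28.6 and 32.8 CPM per kb, a mean of 30.7 ± 2.98 (SD, n = 2). The pump gene nca-2 (chromosome VI, 614672 to 620621) stood at 20.2 and 35.9 CPM per kb, a mean of 28.1 ± 11.1 (SD, n = 2). Their ranges over both libraries overlapped, and nca-1 held rank 2 in replicate 1 but rank 4 in replicate 2, while nca-2 was rank 4 in replicate 1 and rank 2 in replicate 2.

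Of the 10 pairs of members, 7 had ranges that did not overlap, including all 4 pairs with nca-3. The share over all pairs of genes was not computed, so the count is not a trait of these members. Of the 4 pairs of neighbours in the order, nca-3 against nca-1 and nca-2 against pmr-1 were apart. An exact permutation test of 2 against 2 values cannot give a p below 0.333, so the order is a description. The related pump genes nca-2 and nca-3 stood apart in both libraries, with nca-3 at 3.08 times the level of nca-2 per kilobase in replicate 1 and 1.97 times in replicate 2.

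**Figure D3:**
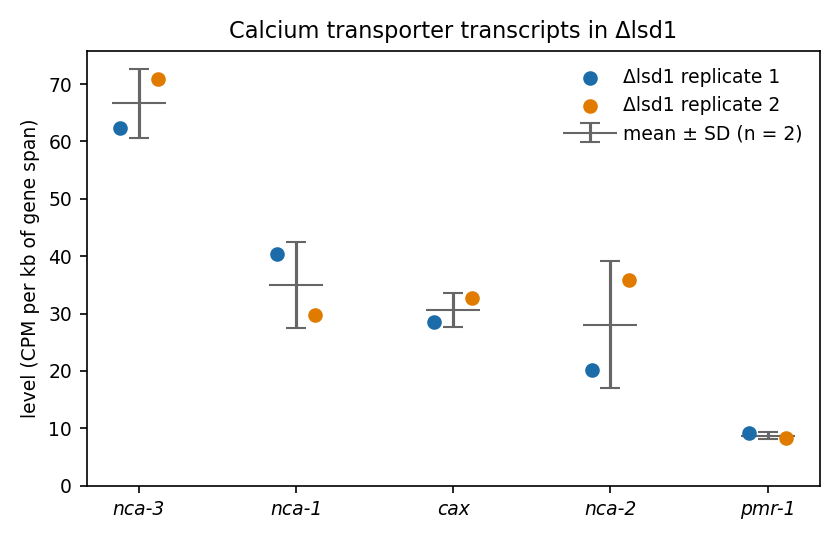
Level of each gene in CPM per kilobase of gene span (vertical axis, linear from 0) in Δlsd1 replicates 1 and 2, with the mean and SD. The points of nca-3 (62.4 and 70.8) lie above those of every other member, the points of nca-1, cax and nca-2 overlap, and those of pmr-1 (9.14 and 8.32) lie below the rest.

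Within the members' reads, the shares of nca-3 and cax were nearly the same in both libraries and those of nca-1 and nca-2 were not. Of all reads on the 5 genes, nca-3 took 41.0% in replicate 1 and 40.4% in replicate 2, and cax took 15.8% and 15.7%. The share of nca-2 was 17.3% in replicate 1 and 26.6% in replicate 2, and that of nca-1 was 21.0% and 13.4%. These shares are not corrected for gene length, so each gene is compared with itself between the libraries and not with the others.

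The difference between the libraries was tested for every gene with an exact two-sided binomial test of its 2 counts, adjusted over the same 7319 genes. It compares these libraries and not conditions, and it finds smaller differences in genes with more reads. The test allows for counting error only, so a small p-value shows a difference beyond counting error and no more. The test called 27.1% of the genes, and 4 of the 5 members. The median absolute log2 ratio between the libraries was 0.20 over the members and 0.21 over all genes tested, and 3 of the 5 members, nca-3, cax and pmr-1, were closer than that.

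The members further apart than the median gene were nca-2 and nca-1. The largest difference was at nca-2, whose counts were 867 in replicate 1 and 1416 in replicate 2. It was 1.77-fold higher in replicate 2 (adjusted p = 9.95e-40 by the exact binomial test), and 4.43% of the genes tested were at least as far apart. For a gene with this spread, a mean over both libraries is less reliable than for nca-3 or cax.

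The gene nca-1 differed the other way. It was 1.36-fold higher in replicate 1 (1053 against 715 reads, adjusted p = 3.72e-09 by the exact binomial test), and 20.4% of genes were at least as far apart. For pmr-1 the ratio was 1.10 (adjusted p = 0.544 by the exact binomial test), so no difference was shown. The called genes nca-3 and cax were 1.14-fold and 1.15-fold higher in replicate 2 (adjusted p = 0.000301 and 0.0234 by the exact binomial test), but the call for cax was lost when libraries were scaled by their totals (adjusted p = 0.198).

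**Figure D4:**
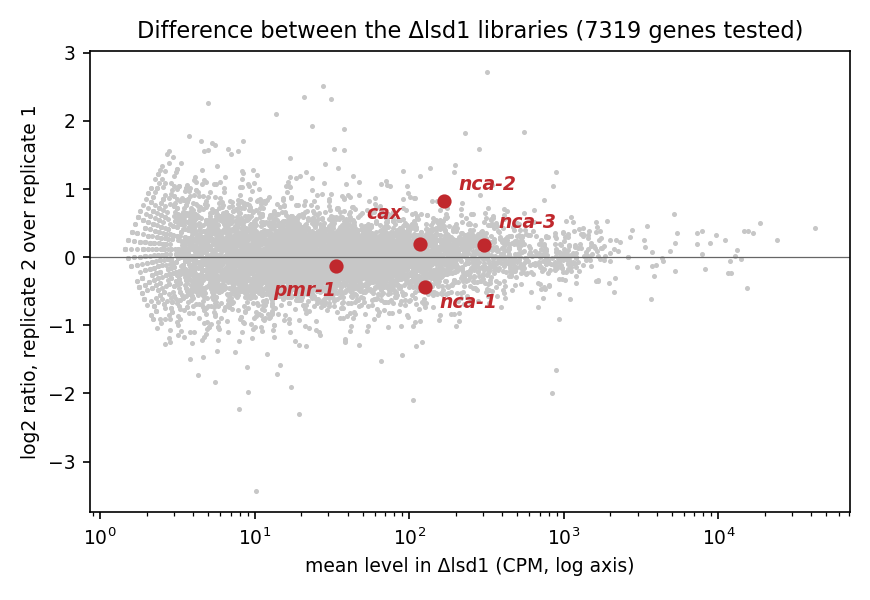
The log2 ratio of replicate 2 over replicate 1 (vertical axis) against the mean level in CPM (horizontal log axis) for the 7319 genes tested, with the 5 members in red. The point of nca-2 stands at 0.83 and that of nca-1 at -0.44, while nca-3 (0.18), cax (0.20) and pmr-1 (-0.14) lie inside the bulk of genes.

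The other genes of calcium signalling that were found by symbol were not called. A list of 27 symbols of calcium channels, sensors, kinases and phospholipases was resolved through the reference table, which held 9 of them, and trp-1 was dropped because that symbol belongs to a tryptophan gene there. None of the 9 was in the authors' deposited tables, beside 3.13% of all counted genes called higher and 7.76% lower. A change under 2-fold would not show in this count. Genes whose symbols were not found in the reference table were not examined. The highest per kilobase was cmd, calmodulin, the main calcium sensor protein, with 150 ± 6.06 CPM per kb (SD, n = 2). It was followed by the calmodulin-dependent kinase gene camk-4 with 101 ± 1.95 (SD, n = 2) and by cnb-1, the regulatory subunit of the phosphatase calcineurin, with 44.5 ± 0.215 (SD, n = 2). The lowest was camk-3, another such kinase gene, with 11.97 ± 1.81 CPM per kb (SD, n = 2).

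The level of nca-3 lay between those of camk-4 and cnb-1. The gene mid-1, for a subunit of the plasma membrane calcium channel, had 432 and 511 reads, 20.7 ± 3.65 CPM per kb (SD, n = 2). By the exact binomial test mid-1 was higher in replicate 2 (adjusted p = 0.000891) and camk-1 higher in replicate 1 (adjusted p = 0.0159), and the other 7 calcium genes did not pass, beside 27.1% of all genes tested that did.

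The vacuolar proton pump genes, whose product builds the gradient that cax uses, were not called either. None of the 13 vma genes or vph-1 was in the authors' deposited tables, beside 3.13% of all counted genes called higher and 7.76% lower. A change under 2-fold would not show in this count. Per kilobase the proton pump genes ranged from 42.4 CPM per kb at vma-4 to 216 at vma-11, with a median of 67.4, against 30.7 for cax. The next highest were vma-3 with 158 ± 3.23 and vma-2 with 126 ± 9.33 CPM per kb (SD, n = 2). Of the 14 genes, 7 differed between the libraries by the exact binomial test, all of them higher in replicate 1. Of all genes tested, 27.1% differed and 13.1% were higher in replicate 1. Those genes had a median of 26.7 CPM against 159 CPM for the 14, and more reads let the test find smaller differences.

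Of 3 other P-type ATPase genes with a symbol, 1 was called lower, beside 7.76% of all counted genes. It was ph7 (NCU08147, synonym ena-2), whose reads numbered 109 in replicate 1 but 54 in replicate 2. It stood at -1.74 on the log2 scale in the authors' deposited table (adjusted p = 2.84e-10). Its log2 fold change was -1.36 with replicate 1 alone and -2.25 with replicate 2 alone, set against the wild-type mean from the authors' deposited table. The libraries differed by the exact binomial test (adjusted p = 0.00100). The plasma membrane proton pump gene pma-1 was the highest of this group with 303 ± 22.4 CPM per kb (SD, n = 2), and the sodium pump gene ena-1 stood at 2.92 ± 0.233 (SD, n = 2); neither was in the tables.

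**Figure D5:**
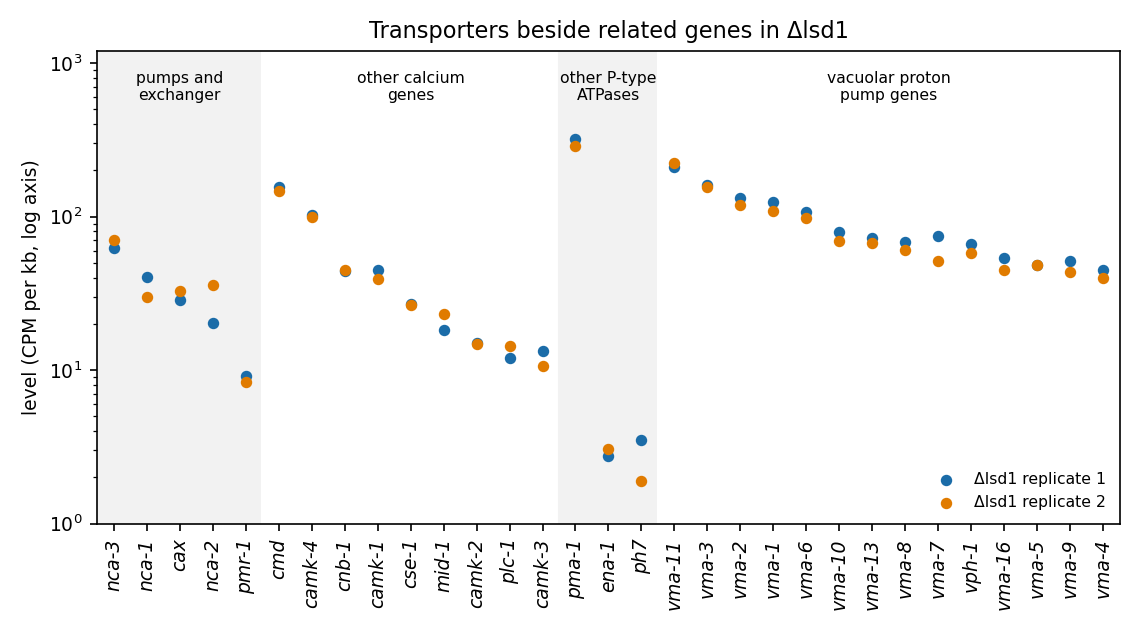
Levels in CPM per kilobase of gene span (vertical log axis) in both Δlsd1 replicates for the 5 members, 9 other calcium genes, 3 other P-type ATPase genes and 14 vacuolar proton pump genes. The gene nca-3 lies near the median of the proton pump genes (67.4), and the means of nca-1, cax, nca-2 and pmr-1 lie below the mean of each of the 14.

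Of 20 neighbours, 2 on each side of every member, 2 were called higher and 1 lower, beside 3.13% and 7.76% of all counted genes. The gene next to nca-3, NCU05153 (chromosome VI, 3556908 to 3559445), begins 74 bp beyond the annotated end of nca-3 and was called lower. It had 35 reads in replicate 1 and 78 in replicate 2, and its means in the authors' deposited table were 395 (wild type) and 95.01 (Δlsd1), a difference of -2.06 on the log2 scale (adjusted p = 4.40e-08). That log2 value was -2.81 with replicate 1 alone and -1.56 with replicate 2 alone. Adjacent genes thus moved in opposite directions. Whether counting used strand is not stated, and how reads near the shared border were assigned was not tested.

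On the other side of nca-3, NCU05155 had 0 reads in both libraries and NCU05156 had 62 and 57. Near cax, the second gene to the right, NCU07073, was called higher, at 1.41 on the log2 scale in the authors' deposited table (adjusted p = 4.99e-09), while NCU07074 between them was in neither table. Near nca-1, NCU03307 was called higher at 1.05 in the authors' deposited table (adjusted p = 0.000901). The annotated span of pcb-3 shares 142 bp with that of nca-1, and reads there belong to either gene unless strand was used.

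The gene beside nca-2 differed between the libraries in the same direction. It is nst-1, a gene of the sirtuin deacetylase family, whose reads numbered 611 in replicate 1 and 880 in replicate 2, 1.56-fold higher in replicate 2 (adjusted p = 2.77e-16 by the exact binomial test). Of all genes tested, 14.0% were called higher in replicate 2. The gene after nst-1, NCU04738, had 382 and 393 reads and did not pass (adjusted p = 0.292 by the exact binomial test). On the other side, NCU17069 and NCU04735 had at most 2 reads in either library.

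None of the members overlapped any of the 250 deposited genomic regions, a list whose origin is not stated; 236 counted genes did. The nearest to a region was nca-1, whose annotated end lies 0.447 kb from a region of 400 bp (chromosome I, 5262921 to 5263320), and 3.16% of all counted genes lay nearer to one. Next came nca-2 at 24.1 kb. The genes called higher lay 58.3 kb (nca-3) and 62.4 kb (cax) from a region and pmr-1 lay 57.8 kb away, against a median of 65.5 kb over all counted genes.

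The members fall on chromosomes I and VI. The 3 on chromosome VI are cax, nca-2 and nca-3, of which cax lies 243 kb from the start of the chromosome. Of the 988 counted genes of chromosome VI, 4.15% were called higher, beside 3.13% of all counted genes.

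In level and change, the genes most like nca-3 and cax carried no symbol, like most of the higher genes. Of those 305 genes, 33 carried a symbol. Likeness was the Euclidean distance of the log2 wild-type and log2 Δlsd1 means in the authors' deposited table of higher genes, over these 2 group means. For nca-3 the nearest was NCU09057 at a distance of 0.22, with means of 1324 and 3141 in the authors' deposited table and an adjusted p of 0.0608. Its log2 fold change was 1.53 with replicate 1 alone and 0.89 with replicate 2 alone. It was followed by NCU04430, NCU02771, NCU02540 and NCU04238, the last at a distance of 0.33. For cax the nearest was NCU07423 at 0.07, with means of 578 and 1265 in the authors' deposited table (adjusted p = 3.54e-07), followed by NCU04065, NCU06711, NCU09400 and NCU07904. Of these 10 genes, NCU04065 lies on chromosome VI, beside 41 of all 305 higher genes.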

How the data were processed

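Of 16 samples, the 2 Δlsd1 RNA-seq libraries have a count file, and the other 14 were not analysed here. Raw read counts of 9730 genes are deposited for each library. The submitters' processing notes name Bowtie2, DESeq2 and deepTools without role or version; the counting program, its strand setting and the genome build are not stated. The mRNA kit was stranded, per the labels' protocols. Closing rows that name no gene were left out: reads outside genes were 12.3% and 12.7% of counted reads, reads aligned to several places 3.74% and 3.38%, and ambiguous reads 0.117% and 0.0879%. How many reads the paralogs share was not tested.

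Per the file headers, the deposited tables of called genes hold the authors' mean normalised counts (a signal) per group, a fold change (a ratio), the log2 fold change, and the p-value before and after adjustment. The Δlsd1 mean was recovered as the mean of count plus 1 over size factors of 0.640 and 0.591, which fixes the direction. The region list holds positions only (deposited; unit other), placed on NC12 by chromosome number.

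CPM used edgeR 4.0.16 TMM factors of 1.03 and 0.975 (R 4.3.3), from genes with 10 or more counts in both libraries. The libraries were no duplicates: their counts differed beyond sampling noise (chi-square of 158248). Each gene's split was tested with an exact binomial test and Benjamini-Hochberg adjustment (Python 3.11.15, scipy 1.17.1), checked on simulated data. The simulated counts held counting noise only, so the check does not show how the test behaves with the larger spread of these libraries. Alternatives were library totals, DESeq2 1.42.0 size factors, other filters, and each library left out. The reference table (RefSeq, NC12) matched 9729 of 9730 identifiers. It gave gene spans but no proteins, so the planned coding length was replaced by gene span, and lists by protein signature or likeness were not made; the 3 P-type ATPase genes were listed by symbol instead. Genes named are the members, called genes of each list with its highest and lowest, 2 neighbours on each side, and 5 most like genes. Members and lists were chosen with earlier results of these data known.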

Additional observations from a re-analysis of the deposited data

How the results depend on the processing

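Of 110 alternative values, 104 kept their direction and call or moved by less than the spread between the libraries. With 2 libraries, leaving 1 out always moves a mean level by less than the SD, so those values could not fail. The level of nca-2 went from 28.1 to 35.9 CPM per kb without replicate 1 and to 20.2 without replicate 2. Leaving out 1 library moved the order of nca-1 among the members over the range 2 to 4 and that of nca-2 over the range 2 to 4, while nca-3 stayed at 1 and pmr-1 at 5. Without length correction nca-2 held rank 2, nca-1 rank 3 and cax rank 4. Scaling by library totals ended the call of cax between the libraries (log2 ratio 0.13, adjusted p = 0.198). The counts of members called higher and lower were the same at an adjusted p under 0.05 and with a 2-fold change required in each library. These stricter limits could only lower a count, so the 0 called lower was fixed in advance. No paired analysis was possible because the wild-type libraries have no counts here. Coding length, distance from gene starts and lists from protein sequence were not run, since the reference holds neither strand nor proteins.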

Other observations

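Other ion transporter genes with a symbol, listed after the files were seen, were not called. The authors' deposited tables held none of the 9, among them genes for potassium, copper, zinc and phosphate transport. Of all counted genes, 3.13% were called higher and 7.76% lower. A change under 2-fold would not show in this count. The highest per kilobase were the copper transporter gene tcu-2 with 94.8 ± 5.70 CPM per kb (SD, n = 2) and the potassium transporter gene hak-1 with 56.7 ± 4.67 (SD, n = 2). The phosphate transporter genes pho-4 (3 and 5 reads) and pho-5 (5 and 10 reads) were the lowest, too low for the test between libraries. Of the 7 tested, hak-1 (adjusted p = 0.0118 by the exact binomial test) and trk, another potassium transporter gene (adjusted p = 0.0376 by the exact binomial test), were higher in replicate 2, beside 14.0% of all genes tested.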
